A study of Mus musculus with 6 samples.

Results

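The genes described here are the transcription factor p53 (Trp53) and 9 genes of its pathway that are widely used as readouts of its activity: Cdkn1a, Mdm2, Ccng1, Phlda3, Zmat3, Sesn2, Tnfrsf10b, Aen and Eda2r. They were chosen by symbol, by matching the Ensembl identifiers of the deposited table to the GENCODE annotation, and all 10 were found among 57132 listed genes. The study sequenced mRNA from mouse bone marrow-derived dendritic cells and made 3 libraries per group, from cultures that lacked queuine (0Q) or received it at 100 nM (100Q). Queuine is the base that cells build into tRNAs for Asn, Asp, His and Tyr as queuosine, at the position that reads the last base of the codon. Both groups started from marrow of female C57BL/6 mice aged 6 to 8 weeks and were cultured with GM-CSF (15 ng/mL) and dialyzed serum. They were fed on days 2 and 4, and RNA was taken on day 5. The labels say that wells were plated in triplicate and name no separate animals, so p-values cover only the spread between such wells and part of that may be technical. The labels name no damaging agent and no p53 mutation for either group. No culture given a damaging agent is among the 6 libraries for reference, so they show only the mRNA levels of the pathway in these cultures.

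In unstressed cells the p53 protein is held low by Mdm2, a ubiquitin ligase that marks it for destruction and whose own gene p53 switches on, which closes a feedback loop. DNA damage and other stresses break this hold, and p53 then binds DNA as a tetramer and raises genes that arrest the cell cycle (Cdkn1a), restrain growth signalling (Sesn2, Phlda3) or favour cell death (Tnfrsf10b, Aen). Because control acts largely on the protein, the level of Trp53 mRNA is a weak guide to activity, and the target mRNAs are the usual readout.

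DNA letters that match the p53 consensus are shown first, since such elements are how p53 is known to reach its targets. The genes were chosen as known targets and not by this search. A p53 response element is a pair of 10-base half-sites, each with a core that starts with C and ends with G. Windows reaching 5000 bases to either side of the start of each gene's canonical transcript (GRCm39) were searched for the 20-base p53 consensus of adjacent half-sites, with at most 1 base off consensus outside the C and G of the cores. The consensus is its own reverse complement in pattern, so each match counts for both strands. Of the 10 genes, 3 held a match, against 188 of 9554 tested protein-coding genes, or 1.97%. Because the 10 were chosen as known p53 targets, a larger share among them is no independent test, and only 7 of them are tested genes. Zmat3 held a match with every base on consensus, which 0.283% of tested genes did. The 5 matches found, in the direction of each gene and with the 4-base core of each half-site in capitals, were:
Cdkn1a: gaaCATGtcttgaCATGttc
Ccng1 upstream: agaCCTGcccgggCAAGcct
Ccng1 downstream: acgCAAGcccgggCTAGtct
Zmat3 downstream: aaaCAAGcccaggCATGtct
Zmat3 upstream: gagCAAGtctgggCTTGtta

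The Cdkn1a element lies at chr17:29309902-29309921 on the plus strand, 2827 bases before the start of the canonical transcript and outside the annotated gene, and its base 11 from the 5′ end is off consensus. The annotated gene begins at 29309936, just after this element, so the canonical start is not the nearest annotated start. The position of the element is inside the span of the predicted gene Gm64878, a long noncoding RNA. In Ccng1 the upstream element is at chr11:40646289-40646308, minus strand, 161 bases before the start and within the span of Gm57413, also a long noncoding RNA, with base 5 off consensus. The downstream element at chr11:40645763-40645782, 365 bases after the start, is intronic in all annotated transcripts, with base 2 off consensus. For Zmat3, on the minus strand of chromosome 3, the full match at chr3:32418480-32418499 is 1418 bases after the start and falls in an exon of a transcript other than the canonical one. The other, at chr3:32424300-32424319, is 4402 bases before the start, outside the gene, with base 20 off consensus. A match is a description of the letters and not a bound site, and the other 7 genes had no such letters in this window, which says nothing about their regulation. Binding of p53 was not measured in these libraries.

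The p53 pathway genes were expressed over a wide range, and 0 of the 10 were called different between cultures with and without queuine. Cdkn1a and Ccng1, the best measured of the targets, had log2 fold changes of -0.06 and 0.02 for 100Q over 0Q. Mdm2, Trp53 and Zmat3 had estimates of 0.43, 0.28 and 0.57, with groups that overlapped and 95% intervals that reached below 0. Sesn2 and Aen had estimates of -0.04 and 0.19, and Phlda3, Tnfrsf10b and Eda2r were near the detection limit. Of 7 genes that passed the filter on low counts, 0 were called by edgeR's quasi-likelihood test at an adjusted p under 0.05, where 0% of all 10554 tested genes were called. At an unadjusted p under 0.05 it was 0 of 7, against 2.93% of all tested genes (309). DESeq2 and limma-voom also called 0 genes, with 356 and 310 at an unadjusted p under 0.05 and 0 of the 7 among them. Groups of 3 libraries lay wholly apart for 0 of the 7 genes, against 8.24% of all tested genes. In bulk libraries such as these, fewer cells of a type and less RNA per cell cannot be told apart.

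Depth was 3675918 to 6755367 counts per library without queuine and 4484785 to 19386533 with it, so 100Q replicate 3 was far deeper than the others. Deviations from the mean correlated across genes with transcript length at a rho of -0.21 in 0Q replicate 1 and between -0.053 and 0.14 in the other 5 libraries. Of 12 dendritic cell markers all passed the filter, with H2-Aa at 482 to 666 CPM and Itgax at 67.6 to 150.0 CPM, whereas Flt3, Zbtb46 and Ciita stayed below 6 CPM in every library. Summed over its list, the level was 957 to 1109 CPM in 0Q and 996 to 1123 CPM in 100Q for dendritic cell markers. Of these 12, 9 estimates were above 0 (median 0.27 on the log2 scale), and the libraries of 4 lay wholly higher in 100Q and those of 1 wholly lower, where the groups lay apart for 8.24% of all tested genes. For 10 monocyte and macrophage markers the summed level was 19018 to 21119 and 18962 to 22751 CPM. Most of this sum was Lyz2, at 16812 to 20505 CPM, whereas Cx3cr1 stayed at or below 0.564 CPM in every library. For 10 granulocyte markers the summed level was 17265 to 20237 and 14504 to 17505 CPM. Of these, 9 estimates were below 0, with a median of -0.20. The libraries of 3 lay wholly lower in 100Q, where the groups lay apart for 8.24% of all tested genes. At an unadjusted p under 0.05 by edgeR, 3 granulocyte markers were lower, against 1.16% of all tested genes. Of the dendritic cell markers, 1 was higher and 1 lower at that threshold, where 1.77% of all tested genes were higher. The summed level of 8 mast cell, basophil and eosinophil markers was 1593 to 1818 and 1398 to 1855 CPM, with all 7 tested estimates below 0 and a median of -0.32. Most of that sum was Prg2, at 1144 to 1541 CPM. Summed levels for markers of B cells, T and NK cells and erythroid cells were at most 31.2, 5.69 and 113 CPM in any library. Cd3e and Mcpt4 were listed at 0 in all 6. The cultures therefore held transcripts of several myeloid types, and the part of cell makeup in the values below was not tested.

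Trp53 (ENSMUSG00000059552, chromosome 11, 69469669 to 69482701, plus strand) encodes p53 itself. Its level was 41.7, 39.8 and 22.5 CPM (counts scaled to a common library total with TMM factors) in 0Q replicates 1, 2 and 3, and 39.5, 50.8 and 37.4 CPM in 100Q replicates 1, 2 and 3. The lowest library was 0Q replicate 3, which held 81 Trp53 counts, and the other 5 overlapped between the groups. Mean levels were 34.7 ± 10.6 CPM without queuine and 42.6 ± 7.17 CPM with it (SD, n = 3 each). The fitted log2 fold change was 0.28 ± 0.26 (SE), with a 95% interval from -0.27 to 0.84 and an adjusted p of 0.999 by edgeR. Without 0Q replicate 3 the estimate was 0.06. Wrap53, a gene transcribed from the opposite strand, shares 263 exon bases with Trp53. The strandedness of the libraries is not given in the sources used here, so a part of the 1741 reads given to Trp53 may belong to Wrap53, which held 401.

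Mdm2 (ENSMUSG00000020184, chromosome 10, 117524780 to 117546730, minus strand) encodes the ligase that degrades p53. The level of Mdm2 was 27.6, 27.6 and 33.9 CPM across the 0Q libraries, against 51.7, 35.8 and 32.8 CPM across those of 100Q. The highest value belonged to 100Q replicate 1, and the groups overlapped because 100Q replicate 3 lay below 0Q replicate 3. From means of 29.7 ± 3.63 and 40.1 ± 10.2 CPM the log2 fold change was 0.43 ± 0.26 (SE), with a 95% interval from -0.11 to 0.97, an unadjusted p of 0.111 and an adjusted p of 0.999 by edgeR. This was the smallest p among the 7 genes, and the interval spans from 0.926-fold to 1.96-fold. Without 100Q replicate 1 the estimate was 0.20.

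Cdkn1a (ENSMUSG00000023067, chromosome 17, 29309936 to 29319701, plus strand) encodes p21, the inhibitor of cyclin-dependent kinases through which p53 stops the cell cycle. Without queuine the libraries gave 71.6, 47.7 and 64.4 CPM, and with queuine 53.2, 59.2 and 63.4 CPM. All 3 values of 100Q fell inside the range of 0Q. Means were 61.2 ± 12.3 and 58.6 ± 5.12 CPM, and the log2 fold change was -0.06 ± 0.21 (SE), with an adjusted p of 0.999 by edgeR. Its 95% interval from -0.49 to 0.38 is 0.711-fold to 1.30-fold. With 1 library left out the estimate ranged from -0.22 to 0.08. An antisense transcript at the same locus, the damage-induced noncoding RNA Dino, shares 504 exon bases with Cdkn1a and held 7.12 counts over the 6 libraries, against 2710 for Cdkn1a. Gm64878, also on the opposite strand, shares 249 exon bases with Cdkn1a and is not among the listed genes. With strandedness not given, a part of the Cdkn1a counts may belong to Gm64878.

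**Figure D1:**
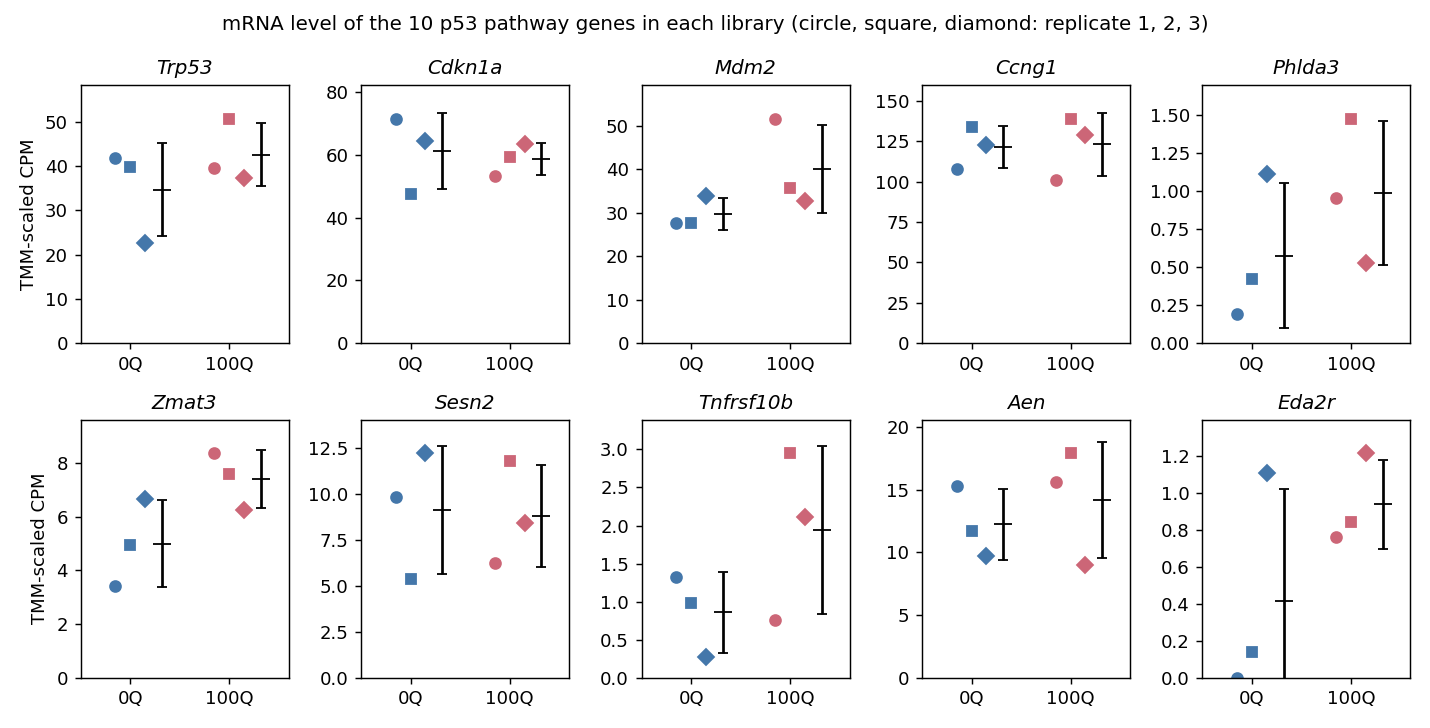
Expression of each of the 10 genes in TMM-scaled CPM (vertical axis, linear from 0, with its own scale per gene) in the 3 libraries of 0Q (blue) and of 100Q (red); the black bar is the mean with its SD. The points of the groups overlap in every panel, and Phlda3, Tnfrsf10b and Eda2r stay below 3 CPM.

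Ccng1 (ENSMUSG00000020326, chromosome 11, 40639377 to 40646148, minus strand) encodes cyclin G1, which brings a phosphatase to Mdm2 and is a long-known p53 target. Its level was 108, 134 and 123 CPM for 0Q, against 101, 139 and 129 CPM for 100Q. It was the most abundant of the 10 by CPM, and its highest library was 1.38 times its lowest, the smallest ratio among the 9 genes detected in every library. The 2 lowest libraries were replicate 1 of each group. With means of 121.5 ± 12.9 and 123 ± 19.7 CPM, the log2 fold change was 0.02 ± 0.17 (SE), with an adjusted p of 0.999 by edgeR. Its 95% interval from -0.33 to 0.37 is 0.794-fold to 1.29-fold. Nudcd2, on the opposite strand, shares 114 exon bases with it and held 3443 counts against 5593. Among 2272 other genes at a mean of 50 CPM or more, those whose mean-centred log2(CPM + 1) over the 6 libraries was closest to that of Ccng1 were Mcm6, Sptan1 and Lamtor1. Their root mean square differences from it were 0.0466, 0.0576 and 0.0597 on the log2 scale, and Ccng1 itself varied by 0.164 around its mean. These are the closest of 2272 genes over only 6 libraries, and shared control with Ccng1 was not tested.

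Sesn2 (ENSMUSG00000028893, chromosome 4, 132219335 to 132237815, minus strand) encodes sestrin 2, which restrains mTOR when leucine is short and is also raised by the amino acid response factor ATF4. Cultures without queuine gave 9.82, 5.36 and 12.2 CPM, and those with queuine 6.27, 11.8 and 8.40 CPM. The lowest and the highest of the 6 libraries both belonged to 0Q. The log2 fold change was -0.04 ± 0.46 (SE), with a 95% interval from -0.997 to 0.919 and an adjusted p of 0.999 by edgeR. That interval spans from 0.501-fold to 1.89-fold.

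Zmat3 (ENSMUSG00000027663, chromosome 3, 32388941 to 32420163, minus strand) encodes a zinc finger protein that binds RNA and acts on splicing. Its values were 3.40, 4.94 and 6.67 CPM for 0Q, against 8.36, 7.58 and 6.24 CPM for 100Q. Only 0Q replicate 3 reached into the range of 100Q, and the lowest 2 libraries were 0Q replicates 1 and 2. The log2 fold change was 0.57 ± 0.50 (SE), with a 95% interval from -0.49 to 1.63 and an adjusted p of 0.999 by edgeR, and it lay between 0.35 and 0.81 with 1 library left out. This was the highest estimate of the 7 and it rests on 77 counts in 0Q and 198 in 100Q, so the interval reaches from 0.712-fold to 3.09-fold.

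Aen (ENSMUSG00000030609, chromosome 7, 78545602 to 78560957, plus strand) encodes a nuclease that promotes apoptosis. The libraries gave 15.3, 11.7 and 9.72 CPM for 0Q, against 15.6, 17.9 and 8.98 CPM for 100Q, and the library with the least was 100Q replicate 3. The log2 fold change was 0.19 ± 0.38 (SE), with a 95% interval from -0.62 to 0.997 and an adjusted p of 0.999 by edgeR, and it was -0.02 when 100Q replicate 2 was left out. Gm73250, a long noncoding RNA on the opposite strand, shares 1214 exon bases with Aen and is not among the listed genes. With strandedness not given, a part of the 536 counts of Aen may belong to it.

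Of the 10 genes, Tnfrsf10b, Phlda3 and Eda2r were barely detected. Tnfrsf10b (ENSMUSG00000022074, chromosome 14, 70004916 to 70021860), the receptor for the death ligand TRAIL, had 7, 7 and 1 counts in 0Q and 4, 14 and 40 counts in 100Q, or 0.278 to 1.32 and 0.760 to 2.95 CPM. Phlda3 (ENSMUSG00000041801, chromosome 1, 135693809 to 135697686), which competes with Akt for membrane lipids, had 1, 3 and 4 counts in 0Q and 5, 7 and 10 counts in 100Q. Eda2r (ENSMUSG00000034457, chromosome X, 96320270 to 96420847), a receptor of the TNF receptor family for ectodysplasin, had 0, 1 and 4 counts in 0Q and 4, 4 and 23 counts in 100Q. The libraries of the groups overlapped in CPM for each of these. The 0 counts in 0Q replicate 1 allow Eda2r up to 0.567 CPM there, at a floor of 3 counts. These 3 genes were below the filter. In a fit without it their edgeR adjusted p was 0.855, 0.956 and 0.890, with 95% intervals of the log2 fold change from -1.35 to 3.62, from -2.61 to 4.19 and from -2.24 to 4.80. Neither the direction nor the size of a difference could be told from these counts.

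**Figure D2:**
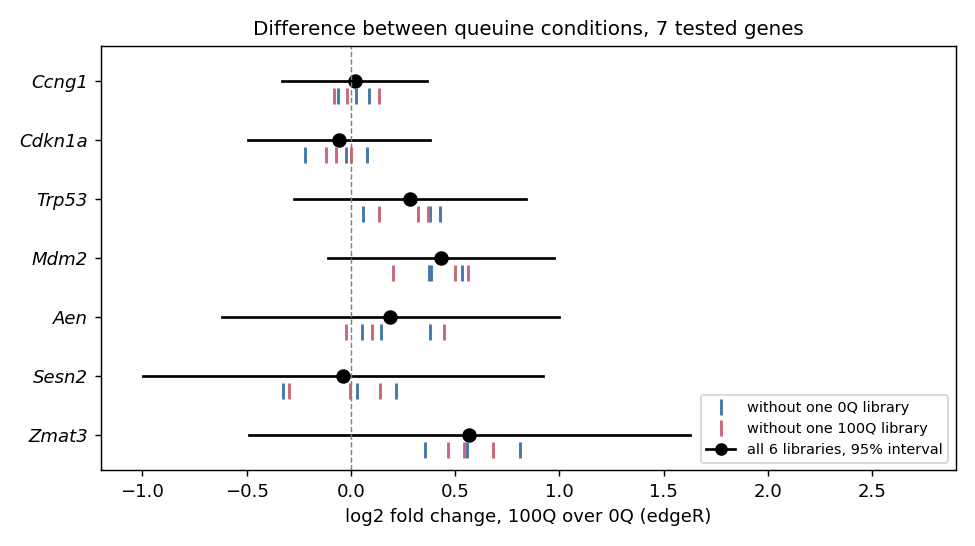
Log2 fold change of 100Q over 0Q (horizontal axis) for the 7 tested genes, ordered by mean CPM, with the 95% interval of edgeR as a black line and ticks for the estimates with 1 library of 0Q (blue) or of 100Q (red) left out. Every interval includes 0, and the narrowest is that of Ccng1 and the widest that of Zmat3.

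Precision followed abundance. The half-width of the 95% interval of the log2 fold change was 0.35 for Ccng1 and 0.43 for Cdkn1a, 0.54 for Mdm2 and 0.56 for Trp53, 0.81 for Aen, 0.96 for Sesn2 and 1.06 for Zmat3. The median over tested genes was 0.30 at 100 CPM or more, 0.65 from 10 to 100 CPM and 1.36 below 10 CPM. Over the 7 tested genes the estimates split 5 above 0 and 2 below, where 50% of all tested genes were above, and their median was 0.19, against 0.00 over all 10554. With 1 library left out this median lay between -0.02, when 100Q replicate 2 was omitted, and 0.37, when 100Q replicate 3 was. It was 0.35 without 0Q replicate 1 and 0.06 without 0Q replicate 3. Summed over all 10 genes, the level was 272 to 279 CPM without queuine and 278 to 327 CPM with it, so the groups overlapped.

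To set the genes against each other, CPM was divided by the length in kilobases of the canonical transcript. This assumes reads along whole transcripts, and the library method is not given in the sources used here. Ccng1 and Cdkn1a led, with means over the 6 libraries of 34.8 ± 4.25 and 31.2 ± 4.44 CPM per kb (SD, n = 6). They were followed by Trp53 at 20.9 ± 4.96 and Mdm2 at 11.3 ± 2.87 CPM per kb. Neighbours among these 4 overlapped in their libraries. A gap without overlap separated Mdm2 from Sesn2, at 2.58 ± 0.811 CPM per kb, and below it each gene again overlapped the next: Aen at 1.18 ± 0.321, Zmat3 at 0.787 ± 0.229, Tnfrsf10b at 0.440 ± 0.306, Phlda3 at 0.340 ± 0.210 and Eda2r at 0.142 ± 0.105 CPM per kb. With the length of all annotated exons in place of the canonical transcript, the order of the first 7 was the same and Phlda3 passed Tnfrsf10b. On that scale Ccng1 stood clear of Cdkn1a, Cdkn1a of Trp53 and Aen of Zmat3. Levels there were 27.8 ± 3.39 CPM per kb for Ccng1, 9.91 ± 1.41 for Cdkn1a and 5.23 ± 1.24 for Trp53, so the distance between genes depends on the length used.

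**Figure D3:**
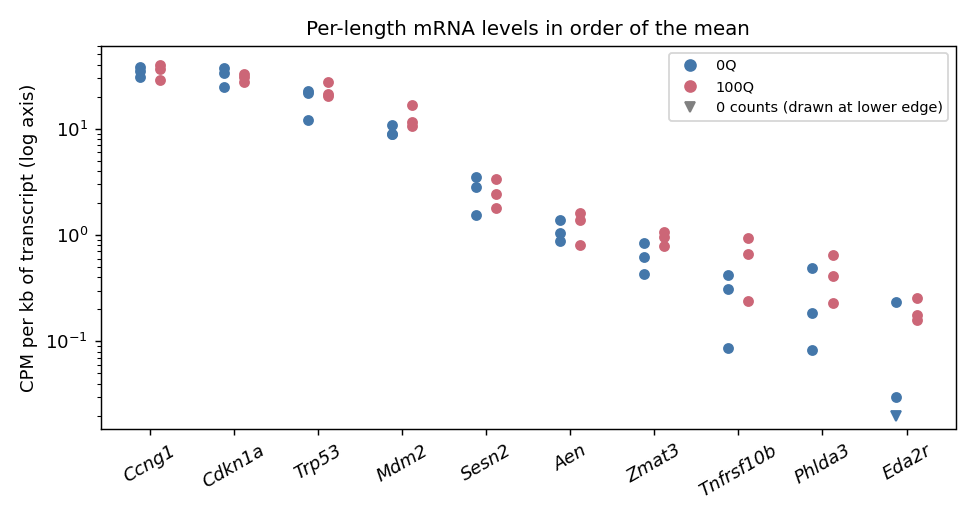
Level of each gene in CPM per kilobase of canonical transcript (logarithmic vertical axis) in each library of 0Q (blue) and 100Q (red), in order of the mean. Ccng1, Cdkn1a, Trp53 and Mdm2 lie above 8 CPM per kb in every library and the other 6 below 4; the triangle marks the library in which Eda2r had 0 counts.

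Since queuosine sits in the tRNAs that read codons of the form NAU and NAC, the coding sequences of the genes were described by these codons. They made up 4.80% of the codons of Phlda3 and between 11.9% and 15.5% of those of the other 9, against a median of 14.1% over 8702 tested genes with 20 or more of them. The U-ending share ran from 57.9% in Mdm2 (44 NAU and 32 NAC) and in Eda2r (22 and 16) down to 26.2% in Aen (11 and 31). Ccng1 had 54.3%, Trp53 47.9%, Zmat3 44.4%, Tnfrsf10b 37.0% and Sesn2 30.6%. Over the tested genes the median was 44.0%, with quartiles of 35.0% and 53.7%. Mdm2 was above 83.7% of them and Aen above 7.60%, so the genes lay on both sides of the middle. Cdkn1a, with 7 NAU and 12 NAC, and Phlda3, with 1 and 5, had fewer than 20 such codons. The stretches of 20 codons that are densest in them in the genes at either end, codons 218 to 237 of Mdm2 with 7 NAU and 1 NAC and codons 136 to 155 of Aen with 2 and 5, are shown with these codons in capitals and T for U:
Mdm2: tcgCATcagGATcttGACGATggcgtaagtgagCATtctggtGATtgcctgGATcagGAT
Aen: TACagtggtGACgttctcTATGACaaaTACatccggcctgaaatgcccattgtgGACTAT

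**Figure D4:**
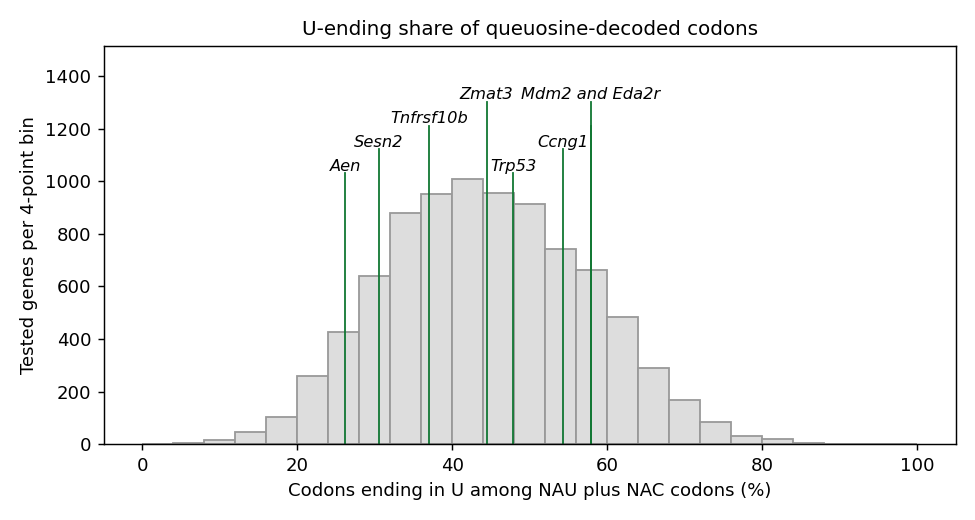
Share of U-ending codons among NAU plus NAC codons (horizontal axis, %) for 8702 tested genes (grey bars, genes per bin) and for the 8 pathway genes with 20 or more such codons (green lines). The genes spread from Aen at 26.2% to Mdm2 and Eda2r at 57.9%, across the middle of the distribution.

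The wider pathway gave 0 calls as well. Of 30 other p53 targets, 26 were tested, with 11 estimates above 0 and 15 below and a median log2 fold change of -0.08, and 0 passed. The most abundant was Rps27l, a ribosomal protein paralog, at 995 ± 11.8 CPM against 917 ± 57.8 CPM with queuine (log2 fold change -0.12, SE 0.10); its reads can be divided with near-identical copies, so the level is uncertain. The smallest p belonged to Plk3, a stress-responsive polo-like kinase. Its libraries gave 1.32, 2.40 and 3.33 CPM for 0Q, against 13.3, 4.63 and 5.55 CPM for 100Q, and edgeR a log2 fold change of 1.74 ± 0.63 (SE), with an unadjusted p of 0.0128 and an adjusted p of 0.999. It was the 1 gene of this list at an unadjusted p under 0.05 on the higher side, against 1.77% of all tested genes. Next was Ephx1, an epoxide hydrolase, at 17.0 ± 7.45 and 9.43 ± 2.50 CPM (log2 fold change -0.83, SE 0.40). Libraries of the groups lay apart for 5 of the 26, with Plk3 and the nucleotide reductase subunit Rrm2b higher in 100Q and Rps27l, Perp and Psrc1 lower, against 8.24% of all tested genes; Rrm2b, Perp and Psrc1 are named after their values were seen.

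Of 23 genes that control p53, 19 were tested and 0 passed, with 10 estimates above 0, 9 below and a median of 0.01. The ribosomal protein Rpl11, which binds Mdm2 when ribosome assembly is disturbed, was the most abundant at 798 ± 67.3 CPM against 749 ± 42.6 CPM with queuine. Rpl5, the other ribosomal protein gene of this list, named after its values were seen, had a mean of 13.0 CPM over the 6 libraries. As for Rps27l, reads of such genes can be divided with near-identical copies, so these levels and the rank are uncertain. Kat8, an acetyltransferase, had 8.93 ± 0.574 and 4.42 ± 2.43 CPM (log2 fold change -1.04, SE 0.53, with p of 0.0630 before and 0.999 after adjustment by edgeR), and it was the 1 gene of the 19 whose groups lay apart, against 8.24% of all tested genes. Rchy1, a ubiquitin ligase for p53, had 22.7 ± 5.54 and 16.1 ± 6.55 CPM (log2 fold change -0.49, SE 0.36). Cdkn2a, which encodes the Mdm2 inhibitor ARF, and the p53 relatives Trp63 and Trp73 were at 0 counts in each of the 6 libraries, and the floor of 3 counts is 0.159 CPM in the deepest.

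Genes that p53 represses through p21 were read from a list of 14 cell cycle genes, all of them tested. The estimates were above 0 for 6 and below for 8, with a median of -0.04, a range from -0.24 to 0.69 and 0 calls. Cdk1, the mitotic kinase, was at 375 ± 30.1 CPM against 359 ± 41.0 CPM with queuine. Cdc25c, a phosphatase that activates it, had 3.97 ± 2.83 and 6.64 ± 2.65 CPM, and the checkpoint kinase Bub1 18.7 ± 4.69 and 23.2 ± 4.45 CPM (log2 fold changes 0.69, SE 0.64, and 0.31, SE 0.31). The groups lay apart for 1 of the 14, Aurkb, named after its values were seen, at 24.1 ± 1.43 and 20.3 ± 0.445 CPM, against 8.24% of all tested genes.

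**Figure D5:**
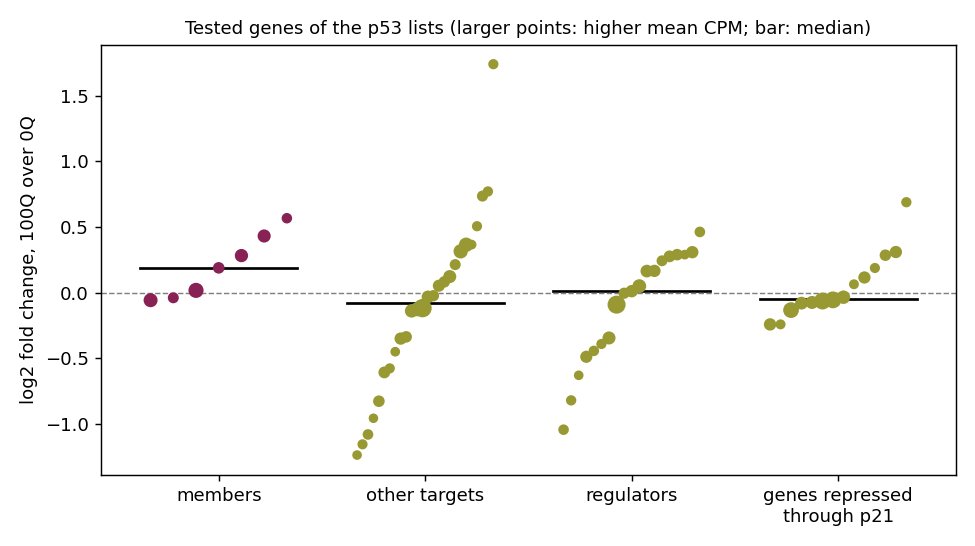
Log2 fold change of 100Q over 0Q (vertical axis) for each tested gene of 4 lists, with larger points for higher mean CPM and a bar at the list's median. The medians are 0.19 for the 7 pathway genes, -0.08 for other targets, 0.01 for regulators and -0.04 for genes repressed through p21, and small points spread furthest from 0.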

How the data were processed

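The single table used holds expected counts, deposited by the authors with 1 column per library, not normalized, and estimated with RSEM after STAR alignment to mm39 (GRCm39), per the submitters' processing notes. Neither versions nor the annotation release are given in the sources used here. Expected counts were rounded before testing, and 5.51% to 10.5% of values in a library were not whole. Symbols, transcripts and positions came from GENCODE vM39 (GRCm39 as well); 502 of 57132 identifiers had no match, and 0 sample columns were left unused. Genes were tested in R 4.3.3 with edgeR 4.0.16 (filterByExpr, TMM, robust quasi-likelihood test, Benjamini-Hochberg over all 10554 tested genes, threshold 0.05). SE was the absolute log2 fold change over the root of F. The script was tested on simulated data. All pairs of libraries differed by more than sampling noise (chi-square per gene 8.68 to 19.8). Floors of 3 counts, 0.159 to 0.833 CPM on the TMM scale, cover counting error only. DESeq2 1.42.0, limma-voom (limma 3.58.1), other scalings and filters, a replicate block and omission of each library were alternatives. The genes, lists and alternatives were chosen with earlier results of these data known, and the search for p53 elements and the codon stretches after the levels were seen. From each other list the most abundant gene and the 2 with the smallest p are named, and from the likeness search the closest 3.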

Additional observations from a re-analysis of the deposited data

How the results depend on the processing

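In all settings 0 of the 7 tested genes passed the threshold, and their groups overlapped under every scaling tried. Over all genes the count was 0, except 2 without 0Q replicate 1 and 1 without 0Q replicate 2. The median of the 7 genes, 0.19, lay between -0.02 and 0.37 when single libraries were omitted and at 0.07 by limma-voom, and the cause was not tested. Of 98 gene estimates in alternatives, 14 changed sign and 0 were called. Of these, 6 were outside omissions: Sesn2 was 0.02 with library totals alone, 0.07 by limma-voom and 0.04 with 100Q replicate 3 thinned, Cdkn1a was 0.02 and Aen -0.08 by limma-voom, and Ccng1 was -0.01 with thinning. Over omitted libraries Cdkn1a ranged from -0.22 to 0.08, Ccng1 from -0.08 to 0.13, Sesn2 from -0.33 to 0.22 and Aen from -0.02 to 0.45. Trp53, from 0.06 to 0.43, Mdm2, from 0.20 to 0.56, and Zmat3, from 0.35 to 0.81, stayed above 0 in every setting run. Fitting the replicate number as a block called 0 genes, 421 had an unadjusted p under 0.05 and it changed no call of the 7; same-numbered libraries had deviations correlated at 0.02, 0.10 and -0.02, so the numbers were not taken to pair the samples. Phlda3, Tnfrsf10b and Eda2r had too few counts to be tested unless the filter was dropped.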
